A study of Bos taurus with 37 samples.

Results

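Cholesterol synthesis was followed through 7 genes in single bovine blastocysts. HMGCS1, IDI1, FDFT1, SQLE, LSS and DHCR7 encode enzymes of the pathway, and INSIG1 encodes its feedback regulator. They were picked by symbol from the expression table, where each matched a single row among the 22628 rows of the table, which carry 22214 different symbols. Although the genes had been grouped as cholesterol synthesis and uptake genes, none of the 7 is an uptake receptor, so uptake was read only from a separate list of other genes.

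The embryos fell into 6 groups, made up of male and female blastocysts of 3 origins. IVF-BLs came from in vitro fertilized oocytes. SCNT-BLs came from enucleated oocytes fused with adult ear skin fibroblasts and activated after fusion. They thus carry the genome of a donor cell, with male and female embryos made from different donor cells. Sham NT-BLs were IVF zygotes from which the polar body and some ooplasm had been taken and which were then activated with ionomycin and DMAP, so that they kept their own embryonic genome. Each group held 6 single embryos except female sham NT, which held 5, giving 35 blastocysts. A single library of fibroblasts per sex served as the donor cell reference, without replicates. All embryos were cultured to the blastocyst stage and their RNA was amplified before sequencing. Only embryos of good quality had been taken, and male and female libraries were pooled and run on separate flow cells, so that a difference between the sexes and one between the runs cannot be told apart. Among SCNT-BLs, neither can be told apart from a difference between the male and female donor cells.

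Cells make cholesterol from acetyl-CoA. HMGCS1 starts the mevalonate route, IDI1 and FDPS build the isoprenoid chain, FDFT1 joins it to squalene, SQLE and LSS turn squalene into lanosterol, and a series of sterol enzymes, DHCR7 among the last, complete cholesterol. When sterols are scarce, the protein SCAP carries SREBP2 to the Golgi, where it is cut and switches on most of these genes. When sterols are plentiful, INSIG1 holds SCAP in the endoplasmic reticulum. The embryo needs sterols for new membranes and for sterol-modified signalling proteins.

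All values are FPKM, a level scaled to transcript length and to the mapped fragments of the library. Whether amplification affected all genes alike was not tested, so levels of different genes are compared only roughly. Differences are in log2(FPKM + 1), which understates changes of genes near 0. A call means a Benjamini-Hochberg adjusted p under 0.05 in limma across all rows tested. Counts at an unadjusted p under 0.05 are also given. The share of all rows with such a p is given for female SCNT against IVF, the sham sexes and the sham difference between sexes. In the other comparisons such a count has no background beside it and is not read as a result. The summed FPKM was 414105 to 601000 per library, and embryos correlated with their own group at a median r of 0.851 to 0.912, with no library repeated. The number of reads per gene is unknown. A relative depth read from the spacing of values under 1 FPKM, against male IVF embryo 1 set to 1, had group medians of 0.635 in male and 0.674 in female sham NT and 0.873 to 1.10 in the other 4 groups, but the spacing held only 11.8 to 20.5% of the low values. Female SCNT embryos 5 and 6 stood apart from the other 4 of their group, with relative depths of 0.371 and 0.511 against 0.940 to 1.17, 12106 and 12070 rows over 0.1 FPKM against 13337 to 14030, and r of 0.868 and 0.851 to their group against 0.902 to 0.912, so calls of the 7 genes that use female SCNT are also given without both. Trophectoderm markers summed to between 1878 and 9648 FPKM in every embryo, and fibroblast markers to between 2.44 and 39.4 FPKM, against 14484 and 9875 FPKM in the male and female donor cells. SOX17 of the primitive endoderm did not exceed 1.09 FPKM and FGF4 of the epiblast 0.836 FPKM in any embryo.

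The 7 genes differed widely in level. In male IVF-BLs, HMGCS1 and DHCR7 were highest, at 111 ± 51.3 and 84.6 ± 20.2 FPKM (SD, n = 6). FDFT1 stood at 34.0 ± 3.42 and IDI1 at 18.7 ± 6.36 FPKM. SQLE at 6.76 ± 2.71 and LSS at 2.52 ± 1.04 FPKM were lower, and INSIG1 had a median of 0.484 FPKM. The pathway's genes thus covered a range from near 0 to above 100 FPKM in the same embryos, with the feedback gene at the bottom.

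**Figure D1:**
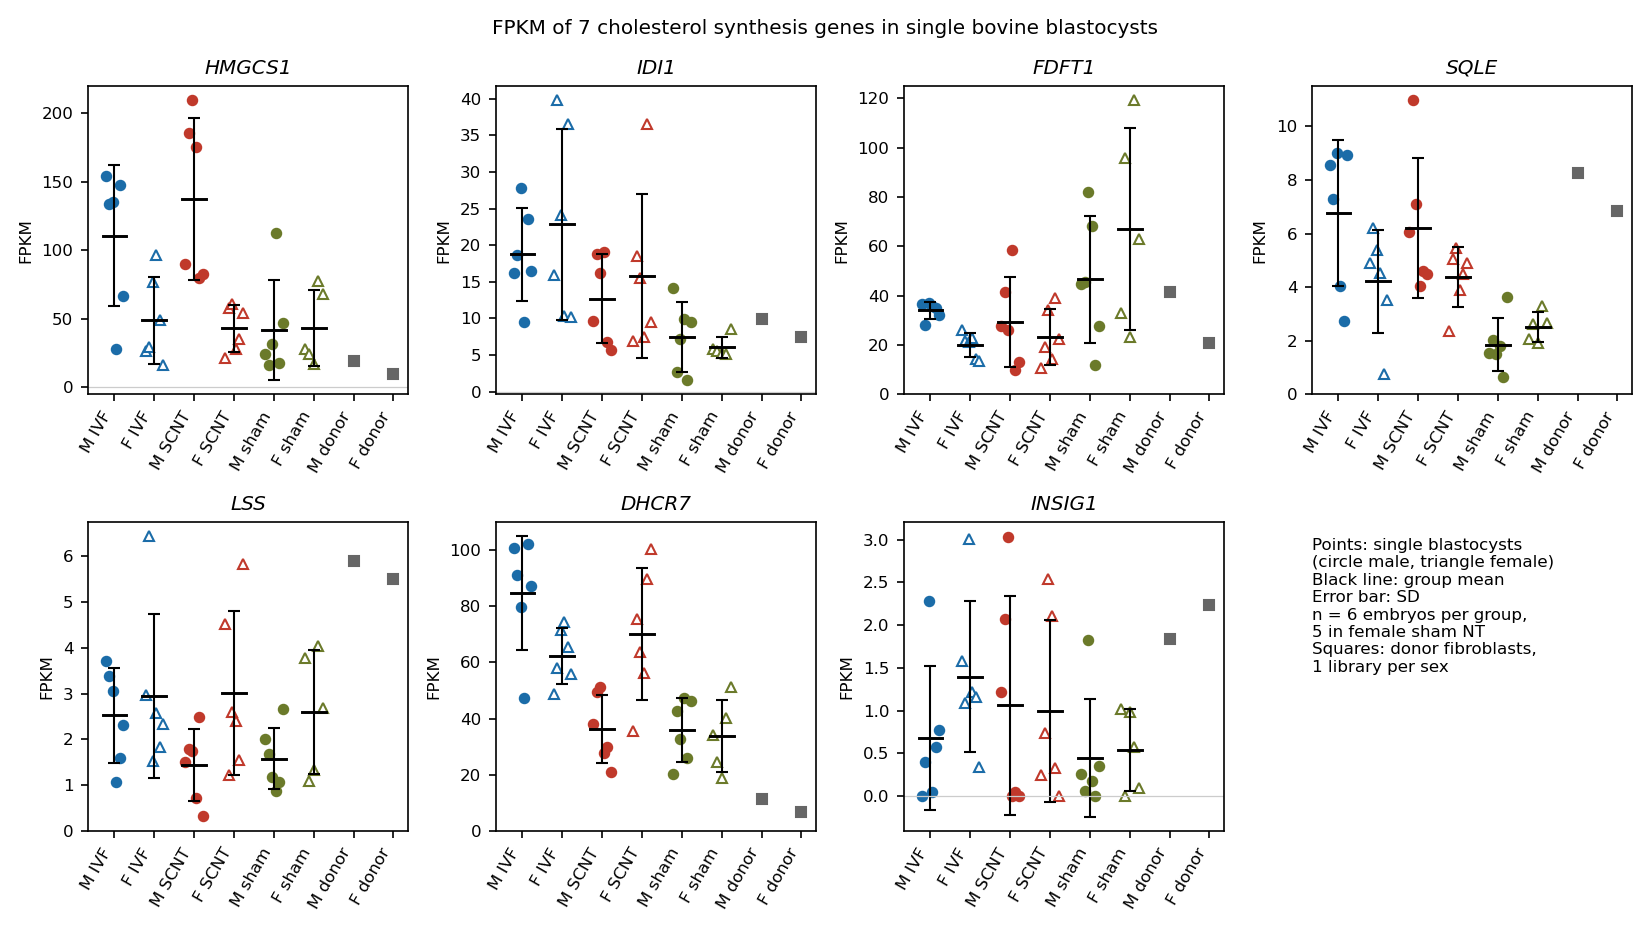
FPKM of each of the 7 genes (vertical axes, linear) in every blastocyst by group (horizontal axes, M male, F female) with the group mean and SD, and in 1 donor fibroblast library per sex. HMGCS1 in female SCNT (21 to 60.7 FPKM) lies below all male SCNT embryos (79.9 to 210), and IDI1 in female sham NT (5.10 to 8.61 FPKM) below all female IVF embryos.

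Somatic cell nuclear transfer was set against IVF within each sex to ask what the donor genome and the procedure did to the pathway. In females none of the 7 genes was called by limma, and none passed an unadjusted p under 0.05, where 0.321% of all rows were called and 10.9% had an unadjusted p under 0.05. The 7 differences lay between -0.55 and 0.13. In males 1 of the 7 genes, DHCR7, was called, and it was lower in SCNT, where 6.98% of all rows were called and 3.64% were called lower. The median difference of the 7 genes was 0.01 in females and -0.43 in males, against -0.04 and -0.01 over all rows tested.

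Sham transfer was set against IVF to look at the handling, including activation of already fertilized zygotes, without a donor genome. Here 3 of the 7 genes were called in females (IDI1 and DHCR7 lower, FDFT1 higher), where 13.5% of all rows were called, and 4 in males (HMGCS1, IDI1, SQLE and DHCR7, all lower), where 12.1% of all rows were called and 5.96% were called lower. Their median difference was -0.46 in females and -1.24 in males, against -0.09 and -0.02 over all rows tested. Between female sham NT and IVF the median of all rows tested, taken per library, shifted by -0.13, while the log2 of the summed FPKM shifted by 0.25 (-0.10 and 0.11 in males). The differences given are corrected for neither. SCNT and sham NT were compared with the same IVF embryos, so these comparisons share their controls. Between SCNT and sham NT, 2 of the 7 genes were called in females (DHCR7 higher in SCNT, FDFT1 lower), where 11.3% of all rows were called. In males 2 were called (HMGCS1 and SQLE, both higher in SCNT), where 11.8% of all rows were called and 5.67% were called higher.

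**Figure D2:**
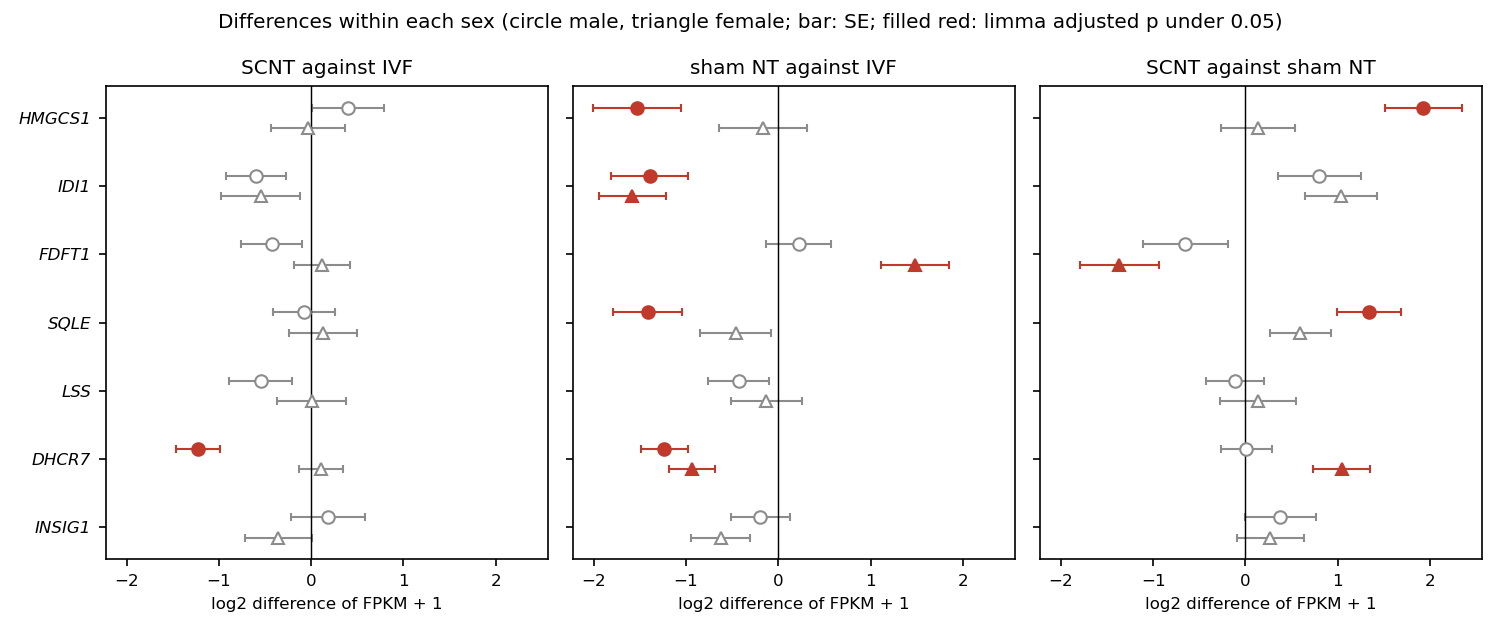
Difference in log2(FPKM + 1) (horizontal axes) for each of the 7 genes (vertical axis) in the 3 comparisons of origin, by sex, with the standard error. Filled red marks show a limma adjusted p under 0.05; the lower levels in sham NT include IDI1 in both sexes (-1.39 in males, -1.58 in females), and the higher level of FDFT1 is that of females (1.48).

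Calls of the 7 genes differed in how firmly they held. Of the 16 calls in all 11 comparisons, 8 held under each of 6 other settings of pseudocount, filter, scaling and samples fitted and when any single embryo was left out. The other 8 lost their call under at least one of these and are named below with the adjusted p they reached.

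HMGCS1, the synthase that makes HMG-CoA at the entry to the mevalonate route, had the largest difference between the sexes among the 7 genes in SCNT embryos. It ranged from 27.8 to 154 FPKM with a median of 134 in male IVF and from 15.9 to 96.2 with a median of 38.8 in female IVF. In SCNT it ranged from 79.9 to 210 (median 133) in males and from 21 to 60.7 (median 44.6) in females, so the sexes did not overlap. In sham NT it ranged from 16.2 to 112 (median 27.8) in males, and the 5 females had 16.9, 24.4, 27.5, 67.7 and 77.5 FPKM. Male IVF and male SCNT thus stood high, and the other 4 groups lay low and close together. In the order of group means, only the step from male IVF (111) to female IVF (48.7) exceeded the larger SD of the groups it separates.

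Female SCNT-BLs had less HMGCS1 than male SCNT-BLs (-1.64 ± 0.32 SE, limma adjusted p = 0.00364). The call held in all 6 settings, with any embryo left out and without both female SCNT embryos 5 and 6 (-1.71, 0.00830). Sex, donor cells and sequencing run cannot be told apart in it. Groups that did not overlap in FPKM, with the females lower, made up 3.23% of all rows tested between the SCNT sexes. HMGCS1 was higher in male SCNT than in male sham NT (1.93 ± 0.42 SE, adjusted p = 0.00601, limma), which also held throughout. It was lower in male sham NT than in male IVF (-1.53 ± 0.48 SE, limma adjusted p = 0.0454). That last call was lost without a filter on low values (adjusted p = 0.0947), with libraries centred on their median (0.0637), and without any of male IVF embryos 1, 2, 3, 5 and 6 or male sham NT embryos 1, 2, 3, 5 and 6 (0.0519 to 0.0975). Between the IVF sexes the difference of -1.22 ± 0.46 SE was not called (limma adjusted p = 0.147), but passed without male IVF embryo 4 (0.0372), the lowest of its group.

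IDI1, which isomerizes the isoprenoid building block, was low in both sham groups. Male IVF ranged from 9.56 to 27.9 FPKM (median 17.6) and male sham NT from 1.55 to 14.1 (median 8.39). Female IVF ranged from 10.2 to 39.8 (median 19.998), while the 5 female sham NT-BLs had 5.10, 5.29, 5.51, 5.88 and 8.61 FPKM. The female groups did not overlap, which with sham NT lower was the case for 3.96% of all rows tested. SCNT-BLs were between these groups, at 5.72 to 19.0 FPKM (median 12.9) in males and 6.90 to 36.5 (median 12.6) in females.

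The lower level of IDI1 in female sham NT than in female IVF (-1.58 ± 0.36 SE, limma adjusted p = 0.00925) held in all 6 settings and with any embryo left out. In males the difference was -1.39 ± 0.42 SE (limma adjusted p = 0.0389). It lost its call without a filter (0.0664), with median centring (0.0526) and without any of male IVF embryos 1, 2, 3, 5 and 6 or male sham NT embryos 2 and 5 (0.0604 to 0.0862). IDI1 in female SCNT exceeded female sham NT by 1.03 ± 0.39 SE without a call (limma adjusted p = 0.104), which it reached when libraries were scaled to an equal sum (0.0473). No pair of neighbours in the order of the 6 group means differed by more than its larger SD.

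FDFT1, the squalene synthase that commits the chain to sterols, moved the other way. The 5 female sham NT-BLs had 23.3, 33.0, 63.1, 95.9 and 120 FPKM, against 13.6 to 26.1 (median 21.4) in female IVF and 10.6 to 39.3 (median 21) in female SCNT. Male sham NT ranged from 11.9 to 82.1 (median 45.3), male SCNT from 10.1 to 58.3 (median 26.8) and male IVF from 28.0 to 36.9 (median 35.4). FDFT1 varied little in male IVF, with an SD of 3.42 FPKM. The SD was largest in sham NT, at 25.7 FPKM in males and 40.8 in females, where the means were also highest. As a share of the group mean, the SD was 61.49% in male SCNT and 61.01% in female sham NT, and lower in the other groups.

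The higher level of FDFT1 in female sham NT than in female IVF (1.48 ± 0.37 SE, limma adjusted p = 0.0147) held in all 6 settings and with any embryo left out. The same contrast differed between the sexes by 1.26 ± 0.54 SE, which was not called (limma adjusted p = 0.328). Female SCNT was below female sham NT (-1.37 ± 0.42 SE, limma adjusted p = 0.0494). This call was lost without a filter (0.0955), with equal sums (0.0818), with median centring (0.0520), and without any of female SCNT embryos 1, 2, 4 and 6 or female sham NT embryos 2, 4 and 5 (0.0626 to 0.137), but kept without both female SCNT embryos 5 and 6 (0.0395). Among IVF embryos 1 of the 7 genes was called between the sexes, where 5.92% of all rows were called and 3.14% were called lower in females. It was FDFT1, lower in females (-0.77 ± 0.20 SE, limma adjusted p = 0.0297) without overlap, as were 2.36% of all rows tested with females lower. It lost its call with equal sums (0.0671), with all 6 groups in 1 fit (0.296), and without any of male IVF embryos 1, 3, 4, 5 and 6 or female IVF embryos 5 and 6 (0.0503 to 0.0620).

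SQLE, squalene epoxidase, is a slow oxygen-dependent step of the pathway. It ranged from 2.73 to 9.01 FPKM (median 7.92) in male IVF, from 4.05 to 10.99 (median 5.32) in male SCNT and from 0.641 to 3.65 (median 1.66) in male sham NT. Female IVF had 0.761 to 6.21 (median 4.72), female SCNT 2.35 to 5.47 (median 4.70), and the 5 female sham NT-BLs 1.91, 2.05, 2.63, 2.67 and 3.30 FPKM. Every male SCNT-BL lay above every male sham NT-BL, as with SCNT higher did 2.95% of all rows tested in males. SQLE was lower in male sham NT than in male IVF (-1.42 ± 0.37 SE, limma adjusted p = 0.0191) and higher in male SCNT than in male sham NT (1.34 ± 0.34 SE, adjusted p = 0.0175, limma). Both calls held in all 6 settings and with any embryo left out, and no female comparison of SQLE was called.

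LSS, lanosterol synthase, closes squalene epoxide into the first sterol ring system. It stayed low, with group means from 1.43 ± 0.787 FPKM in male SCNT to 3.02 ± 1.79 in female SCNT (SD, n = 6 each). Single embryos ranged from 0.324 to 6.43 FPKM, all groups overlapped, and limma called it in none of the 11 comparisons, nor did it pass an unadjusted p under 0.05 in any.

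DHCR7, the reductase of one of the last steps, separated the origins most often. Male IVF ranged from 47.1 to 102 FPKM (median 89.1), male SCNT from 21 to 51.0 (median 34.1) and male sham NT from 20.2 to 47.4 (median 37.7). Female IVF ranged from 48.5 to 74.3 (median 61.7), female SCNT from 35.4 to 100.3 (median 69.5), and the 5 female sham NT-BLs had 18.7, 24.4, 34.1, 40.1 and 51.4 FPKM. Male SCNT and both sham groups thus stood together, with means of 33.7 to 36.2 FPKM, and female SCNT stood with IVF. In the order of means only the step from female IVF (62.3 ± 9.86) to male SCNT (36.2 ± 12.1) exceeded the larger SD (n = 6 each).

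In males DHCR7 was lower in SCNT than in IVF (-1.23 ± 0.24 SE, limma adjusted p = 0.00647) and lower in sham NT than in IVF (-1.24 ± 0.25 SE, adjusted p = 0.00435, limma). Both held in all 6 settings and with any embryo left out. In females sham NT was lower than IVF (-0.93 ± 0.25 SE, limma adjusted p = 0.0220), a call lost with median centring (0.0522) and without female sham NT embryo 2 (0.0612) or 3 (0.0639). DHCR7 was higher in female SCNT than in female sham NT (1.04 ± 0.30 SE, limma adjusted p = 0.0379). That call was lost without a filter (0.0617), with median centring (0.0733), and without any of female SCNT embryos 2 to 6 or female sham NT embryos 1 to 4 (0.0507 to 0.107). Without both female SCNT embryos 5 and 6 the difference was 0.79 (limma adjusted p = 0.120).

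DHCR7 was the only one of the 7 genes whose SCNT difference was called as unequal in the sexes, where 1.91% of all rows were called and 1.06% were called with the larger value in females. The female difference exceeded the male one by 1.33 ± 0.34 SE (limma adjusted p = 0.0425). Sex and donor cells cannot be told apart here either. The call was lost without a filter (0.0552), with median centring (0.0649), with all 6 groups in 1 fit (0.0539), and without any of 18 of the 24 embryos (0.0540 to 0.0738). Without both female SCNT embryos 5 and 6 it was 1.08 (limma adjusted p = 0.124). It was kept only without male IVF embryo 4, male SCNT embryos 2 and 3, female IVF embryo 4, and female SCNT embryos 1 and 4. For sham NT against IVF none of the 7 genes was called as unequal in the sexes by limma, where 1.22% of all rows were called. FDFT1 alone had an unadjusted p under 0.05 there, as did 12.2% of all rows. Among SCNT-BLs 2 of the 7 genes were called between the sexes (HMGCS1 lower and DHCR7 higher in females), where 11.6% of all rows were called. DHCR7 was higher in female SCNT by 0.93 ± 0.27 SE (limma adjusted p = 0.0378), a call lost without a filter (0.0577), with median centring (0.0717), and without any of male SCNT embryos 1, 4, 5 and 6 or female SCNT embryos 2, 3, 5 and 6 (0.0597 to 0.0851). Without both female SCNT embryos 5 and 6 it was 0.67 (limma adjusted p = 0.138). Among sham NT-BLs none of the 7 genes was called between the sexes by limma or passed an unadjusted p under 0.05, where 0.108% of all rows were called and 8.26% had such a p.

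INSIG1 was the least expressed of the 7 genes and was listed at 0 in 6 embryos. Male IVF-BLs had 0, 0.0525, 0.397, 0.572, 0.775 and 2.29 FPKM, and female IVF-BLs 0.337, 1.09, 1.16, 1.22, 1.58 and 3.002. Male SCNT-BLs had 0, 0, 0.0433, 1.21, 2.07 and 3.04 FPKM, and female SCNT-BLs 0, 0.241, 0.331, 0.737, 2.10 and 2.54. Male sham NT-BLs had 0, 0.0599, 0.171, 0.254, 0.357 and 1.83 FPKM, and female sham NT-BLs 0, 0.0994, 0.574, 0.987 and 1.02. All groups overlapped, limma called INSIG1 in none of the 11 comparisons. Its largest difference was that of female sham NT from female IVF (-0.63 ± 0.32 SE, limma adjusted p = 0.227).

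Levels of the cells the SCNT embryos were made from were set beside them. HMGCS1 stood at 18.9 FPKM in the male and 9.18 in the female donor cells, and DHCR7 at 11.3 and 6.78. All 6 SCNT-BLs of each sex were above their donor library for both genes, with means 7.25 and 4.66 times the donor value for HMGCS1 and 3.19 and 10.3 times for DHCR7, in males and females. LSS went the other way, with 5.90 and 5.51 FPKM in the donor cells, above all 6 male and 5 of 6 female SCNT-BLs. SQLE at 8.26 and 6.83 FPKM in the donor cells was above 5 of 6 male and all 6 female SCNT-BLs. IDI1 (9.97 and 7.53 FPKM), FDFT1 (41.4 and 20.9) and INSIG1 (1.84 and 2.24) lay within the range of the SCNT-BLs of their sex. A single donor library per sex allows no test.

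The rest of the synthesis pathway was read from 14 further enzymes. In females SCNT against IVF called none of them by limma, and none passed an unadjusted p under 0.05. The highest expressed, C10H14orf1 (ERG28, a scaffold of the sterol demethylation enzymes) and SC5DL (the lathosterol desaturase just before DHCR7), differed by -0.66 and 0.31 (limma adjusted p = 0.472 and 0.747). In males 1 of 14 was called, where 6.98% of all rows were called, so the count is near that background. SC5DL was higher in SCNT (0.96, limma adjusted p = 0.0134), at 200 to 343 FPKM against 83.5 to 201 in IVF, a call lost with all 6 groups in 1 fit (0.0561).

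**Figure D3:**
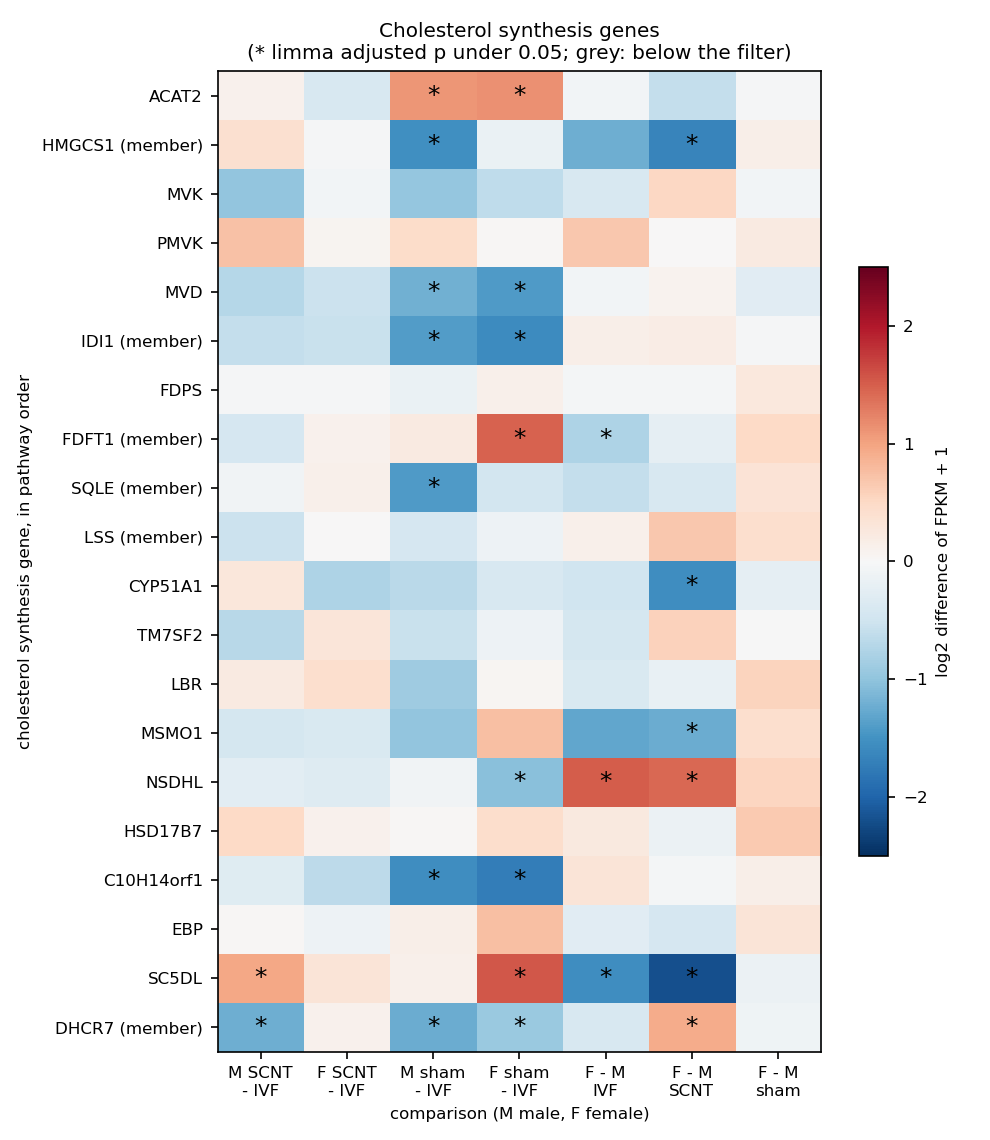
Difference in log2(FPKM + 1) (colour) of the 6 enzymes among the 7 genes and 14 other enzymes in pathway order (rows) in 7 comparisons (columns), with stars for a limma adjusted p under 0.05. Among sham NT-BLs ACAT2 is red and C10H14orf1 blue in both sexes, and NSDHL is red in females in IVF (1.504) and SCNT (1.44).

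In sham NT 5 of the 14 were called in females (2 higher, 3 lower), where 13.5% of all rows were called, and 3 in males (1 higher, 2 lower), where 12.1% were. ACAT2, the cytosolic thiolase that makes acetoacetyl-CoA, was higher in both sexes, by 1.14 in females and 1.10 in males (limma adjusted p = 0.0142 and 0.00488). It ranged from 47.3 to 89.2 FPKM in female and from 47.5 to 104 in male sham NT, above all IVF-BLs of the same sex, at 13.3 to 46.02 and 25.3 to 41.5 FPKM. C10H14orf1 was lower in both sexes, by 1.73 and 1.55 on the log2 scale (limma adjusted p = 5.81e-04 and 0.00435), and the groups did not overlap in either. In females 3.96% of all rows tested did not overlap with sham NT lower. These 4 calls held in all 6 settings and with any embryo left out. MVD, the mevalonate pyrophosphate decarboxylase, had differences of -1.41 in females and -1.20 in males (limma adjusted p = 0.0315 and 0.0476). Its calls were lost in 2 and 4 of the 6 settings and without 5 of 11 female and 10 of 12 male embryos. Females also had less NSDHL, a sterol dehydrogenase encoded on the X chromosome (-1.05, limma adjusted p = 0.0202, lost without 3 of 11 embryos), and more SC5DL (1.54, adjusted p = 0.0143, limma). The median difference of the 14 enzymes was 0.04 in females and -0.37 in males.

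Between the sexes, IVF-BLs had 2 of the 14 enzymes called, where 5.92% of all rows were called, and SCNT-BLs 4, where 11.6% were. NSDHL was higher in females in IVF, at 19.4 to 41.3 against 6.64 to 16.7 FPKM (1.504, limma adjusted p = 0.00152). In SCNT it was also higher in females, at 18.5 to 55.0 against 2.57 to 18.0 FPKM (1.44, limma adjusted p = 0.0168, or 0.0504 without both female SCNT embryos 5 and 6). The study reports higher levels of X-linked genes in female blastocysts and lists NSDHL among them. SC5DL was lower in females in IVF (-1.56, limma adjusted p = 0.0138) and in SCNT (-2.20, limma adjusted p = 1.74e-05), where the females had 43.4 to 70.8 and the males 200 to 343 FPKM. SCNT females also had less CYP51A1, the lanosterol demethylase, and less MSMO1, the sterol methyl oxidase (-1.55 and -1.25, limma adjusted p = 0.0172 and 0.0149). The MSMO1 call was lost with all 6 groups in 1 fit (0.121). Among sham NT-BLs none of the 14 was called by limma, nor had one an unadjusted p under 0.05. SC5DL and ACAT2 differed there by -0.14 and -0.03 (limma adjusted p = 0.917 and 0.983). No enzyme of the 14 had an SCNT or sham difference called as unequal between the sexes by limma, with 1 and 2 at an unadjusted p under 0.05. SC5DL and C10H14orf1 gave -0.65 and -0.36 for SCNT (limma adjusted p = 0.483 and 0.741) and 1.41 and -0.18 for sham NT (adjusted p = 0.199 and 0.904, limma).

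SCNT against sham NT called 4 of the 14 in females (1 higher, 3 lower in SCNT), where 11.3% of all rows were called. In males it called 2 of the 13 that passed the filter, where 11.8% of all rows were called, so the male count is near that background. ACAT2 was lower in SCNT in both sexes, by 1.55 in females and 0.98 in males on the log2 scale (limma adjusted p = 0.00134 and 0.0188), and C10H14orf1 higher, by 1.08 and 1.26 (adjusted p = 0.0496 and 0.0111, limma). The female C10H14orf1 call was lost in 2 of 6 settings and without 9 of 11 embryos. SC5DL (-1.23, limma adjusted p = 0.00616) and EBP, the sterol isomerase encoded on the X chromosome (-0.87, adjusted p = 0.0485), were lower in female SCNT. The EBP call was lost in 2 of 6 settings and without 8 of 11 embryos.

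Regulators of SREBP processing were a list of 8 genes. Female SCNT against IVF called none by limma, with 1 at an unadjusted p under 0.05, and MBTPS1 and PGRMC1, the highest expressed, had 0.08 and -1.03 (limma adjusted p = 0.894 and 0.503). Male SCNT had less SCAP, the sterol sensor that escorts SREBP (-1.10, limma adjusted p = 0.0179). Sham NT against IVF called 2 in females and 3 in males, where 13.5% and 12.1% of all rows were called. SREBF2, the gene of SREBP2 itself, was lower in male sham NT, at 3.98 to 13.95 against 16.1 to 30.3 FPKM (-1.39, limma adjusted p = 0.00562). Calls of MBTPS2 (1.54) and SREBF1 (-0.97) in females and of MBTPS1 (0.94) and SCAP (-0.94) in males had limma adjusted p of 0.0201, 0.0452, 0.0356 and 0.0451 and were each lost without 2 or more embryos.

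SCNT against sham NT called 2 of the 8 regulators in each sex, where 11.3% of all rows were called in females and 11.8% in males. SREBF2 was higher in SCNT in both sexes (1.07 and 1.01, limma adjusted p = 0.0327 and 0.0408), though each call was lost without 7 of 11 or 9 of 12 embryos. SREBF1 was higher in female SCNT (1.23, limma adjusted p = 0.0263) and MBTPS1 lower in male SCNT (-1.03, adjusted p = 0.0279). These calls were lost without 6 of 11 and 5 of 12 embryos. Between the sexes, SCNT females had more SCAP (1.31, limma adjusted p = 0.00937), and the SCAP difference between SCNT and IVF was unequal in the sexes (1.49, adjusted p = 0.0286, limma, lost without either of 2 of 24 embryos). IVF and sham NT sexes had no regulator called by limma, with 1 and 0 at an unadjusted p under 0.05. MBTPS1 and PGRMC1 had 0.01 and 0.76 in IVF (limma adjusted p = 0.983 and 0.330), and -0.42 and 0.69 in sham NT (adjusted p = 0.743 and 0.693). PGRMC1 and MBTPS2 are encoded on the X chromosome, and the study's own test lists PGRMC1 as higher in female than in male IVF-BLs. No regulator had a sham difference called as unequal in the sexes or an unadjusted p under 0.05 there, MBTPS1 and PGRMC1 having -0.43 and -0.07 (limma adjusted p = 0.69 and 0.979).

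Uptake and trafficking were read from 12 genes found of 14 sought, of which sham NT against IVF called 3 in females and 1 in males, all lower, against 13.5% and 12.1% of all rows, so the male count is near that background. OSBP, a sterol carrier between membranes, was lower in sham NT in both sexes, by 1.16 in each on the log2 scale (limma adjusted p = 0.00506 in females and 0.00934 in males), and both calls held throughout. Female sham NT also had less NPC2 and STARD3, carriers of cholesterol out of late endosomes (-1.27 and -1.23, limma adjusted p = 0.0242 and 0.0450), each lost without 5 or more embryos.

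The other comparisons of the 12 uptake genes gave few calls. SCNT against IVF had none in either sex by limma, with 2 in females and 3 in males at an unadjusted p under 0.05. NPC1 and NPC2, the highest expressed, had 0.24 and -0.63 in females (limma adjusted p = 0.723 and 0.454) and -0.25 and -0.40 in males (adjusted p = 0.549 and 0.5998). Against sham NT, female SCNT had more OSBP (1.48, limma adjusted p = 0.00221), and male SCNT less LRP1 (-1.70, adjusted p = 0.0461) and MYLIP (-1.23, adjusted p = 0.0257), lost without 10 and 4 of 12 embryos. SCNT females had more OSBP (1.27, limma adjusted p = 0.00741) and LRP8 (1.52, adjusted p = 0.0148) than SCNT males. None was called by limma between the sexes in IVF or sham NT, with 2 and 0 at an unadjusted p under 0.05. NPC1 and NPC2 had -0.75 and -0.28 in IVF (limma adjusted p = 0.0590 and 0.717), and NPC1 and GRAMD1A -0.05 and 0.13 in sham NT (adjusted p = 0.976 and 0.920). Neither the SCNT nor the sham difference was called as unequal in the sexes for any of the 12, with 2 and 1 at an unadjusted p under 0.05, NPC1 and NPC2 having 0.49 and -0.24 for SCNT (limma adjusted p = 0.489 and 0.866) and 0.69 and -0.21 for sham NT (adjusted p = 0.594 and 0.909).

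Esterification, efflux and the oxysterol receptors made up 14 genes, of which 9 to 11 passed the filter. NR1H2, an oxysterol receptor, was higher in females in IVF (1.57, limma adjusted p = 0.00126) and SCNT (1.68, adjusted p = 4.96e-04). It was lower in female sham NT than in IVF (-1.31, limma adjusted p = 0.00644) and higher in female SCNT than in sham NT (1.46, adjusted p = 0.00466). These 4 calls held throughout. Its sham difference was unequal in the sexes (-1.59, limma adjusted p = 0.0241, lost without 1 of 23 embryos). LCAT, which esterifies cholesterol on lipoproteins, was lower in male SCNT than in IVF (-1.35, limma adjusted p = 0.0247) and in female sham NT than in IVF (-1.58, adjusted p = 0.0238), lost without 5 of 12 and 3 of 11 embryos. It was higher in female SCNT than in female sham NT (1.59, limma adjusted p = 0.0170) and than in male SCNT (1.88, adjusted p = 0.00173). SOAT1, the cholesterol acyltransferase, was the highest expressed of the list and was called in no comparison. Female SCNT against IVF called none of the list by limma and had none at an unadjusted p under 0.05, with -0.39 for SOAT1 and 0.15 for NR1H2 (limma adjusted p = 0.512 and 0.853). Male sham NT against IVF called none either, with 3 at an unadjusted p under 0.05 and 0.27 for SOAT1 and 0.31 for ABCA1 (limma adjusted p = 0.565 and 0.599). Male SCNT against sham NT called none, with 2 such p and -0.64 and -0.76 for the same genes (limma adjusted p = 0.256 and 0.0763). The sexes of sham NT and the SCNT difference between the sexes had no call by limma and 1 and 2 such p, with -0.32 and -0.02 for SOAT1 and NR1H2 in the former (limma adjusted p = 0.778 and 0.989) and -0.01 and 0.11 in the latter (adjusted p = 0.991 and 0.909).

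The isoprenoid branch, which uses the same precursors for other lipids, had 12 genes. GGPS1, the geranylgeranyl pyrophosphate synthase, stood at 1.67 to 14.03 FPKM in male IVF, at 18.2 to 53.8 in male SCNT and at 11.97 to 64.7 in male sham NT. It was higher than in male IVF in both (2.48 and 2.31, limma adjusted p = 0.00105 and 0.00210), which held throughout. In females it had 0.41 in SCNT and 0.88 in sham NT (limma adjusted p = 0.698 and 0.0675). The SCNT difference was called as unequal in the sexes (-2.07, limma adjusted p = 0.0453), lost without a filter (0.0718) and without 19 of 24 embryos. Male sham NT also had more DHDDS, of dolichol synthesis (2.07, limma adjusted p = 0.00864), and less PDSS1 and the farnesyltransferase subunit FNTA (-1.46 and -1.27, limma adjusted p = 0.0205 and 0.0217), the last lost without 3 of 12 embryos. Male SCNT had less DHDDS (-1.28, limma adjusted p = 0.0193) and more FNTA (1.61, adjusted p = 0.00938) than male sham NT. Female IVF had more GGPS1 than male IVF (1.55, limma adjusted p = 0.0269, lost without 5 of 12 embryos). No gene of this list was called by limma in female SCNT against IVF, female sham NT against IVF, female SCNT against sham NT, or the sexes of SCNT or sham NT. In these, 0, 5, 2, 3 and 1 had an unadjusted p under 0.05. Of all rows, 10.9% had such a p in the first comparison and 8.26% in the last. In the others that share is not given, and 13.5%, 11.3% and 11.6% of all rows were called. DHDDS had 0.02, 1.06, -1.03, -0.40 and -0.65 in the 5 comparisons (limma adjusted p = 0.987, 0.0694, 0.103, 0.536 and 0.662), and GGPS1 -0.47, -0.52 and 0.13 in the last 3 (adjusted p = 0.441, 0.390 and 0.936). The sham difference was not called as unequal in the sexes for any, with 1 at an unadjusted p under 0.05, GGPS1 having -1.42 and DHDDS -1.01 (limma adjusted p = 0.254 and 0.565).

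Some markers of the cell types of the blastocyst also differed between the groups, unevenly within each list. In sham NT against IVF, limma called 1 of the 7 inner cell mass markers that passed the filter in females, and 2 of 7 in males. All were lower. The share of all rows called was 13.5% in females and 12.1% in males, so the female count is near that background. POU5F1, the pluripotency factor, was 11.1 to 31.7 FPKM in female sham NT against 35.6 to 136 in female IVF (limma adjusted p = 0.00112). In males it was 8.18 to 21.4 FPKM in sham NT against 33.9 to 73.2 in IVF (limma adjusted p = 7.19e-04). DPPA4 was 7.69 to 21.7 FPKM in male sham NT against 24.5 to 47.97 in male IVF (limma adjusted p = 0.00430). No other member was called. SOX2 had means of 19.3 and 21.9 FPKM in female and 14.8 and 17.6 in male sham NT and IVF, and LIN28B 4.77 and 4.69 in females and 8.28 and 2.21 in males. The summed list had medians of 115 and 91.8 FPKM in female and male sham NT and 190.2 and 175 in IVF.

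Of the primitive endoderm markers, 1 was called higher and 2 lower of 7 tested in female sham NT, where 13.5% of all rows were called. In males 1 was called higher and 1 lower of 8 tested, where 12.1% of all rows were called. HDAC8, encoded on the X chromosome, was the higher one in both sexes, with means of 41.8 against 16.9 FPKM in females and 41.1 against 13.7 in males. GATA6 was lower in females (86.6 against 174). The summed list had medians of 266 and 210.3 FPKM in female and male sham NT and 261 and 243 in IVF. It summed to 178 and 113 FPKM in the male and female donor fibroblasts, so the sum is not particular to primitive endoderm. In these donor cells HDAC8 stood at 11.4 and 2.04 FPKM, and RUNX1 at 15.8 and 31.2. Of the 8 markers, 4 in the male and 3 in the female donor cells were under 0.1 FPKM. Trophectoderm markers, with 1 of 11 called lower in each sex, near the share of all rows, had medians of 4376 and 6177 FPKM in female and male sham NT. In IVF the medians were 7269 and 6003 FPKM. Fibroblast markers summed to 20.8 to 39.4 FPKM in male sham NT and 6.14 to 12.7 in male IVF. In females they summed to 8.19 to 18.9 FPKM in sham NT and 8.74 to 31.96 in IVF. None of the 11 tested in females or the 10 in males was called, and 3 in males and 3 in females had an unadjusted p under 0.05.

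Some markers also differed in the SCNT contrasts. Between the SCNT sexes limma called 2 of 10 trophectoderm markers tested, both lower in females. Higher in females were 1 of 7 inner cell mass, 1 of 7 primitive endoderm and 1 of 8 fibroblast markers. Of all rows 11.6% were called there, so these single calls are near that background. CDX2, the trophectoderm factor, had means of 20.9 FPKM in females and 43.3 in males without overlap, as was the case for 3.23% of all rows with females lower. SALL4 had 34.6 and 9.25 FPKM and RUNX1 10.7 and 2.75. Male SCNT against IVF had 1 of 11 trophectoderm markers called in each direction and 2 of 8 primitive endoderm markers higher, where 6.98% of all rows were called. GATA6 was at 197 against 106 FPKM. Summed cumulus markers had medians of 27.3 FPKM in male SCNT and 11.6 in male IVF, with none called and 1 at an unadjusted p under 0.05. Against sham NT, 2 of 7 inner cell mass markers were called higher in SCNT in each sex. Of 7 primitive endoderm markers, 2 were called higher and 1 lower in females and 1 higher in males. Of all rows 11.3% were called in females and 11.8% in males. POU5F1 was higher in SCNT of both sexes, at means of 48.2 against 18.1 FPKM in females and 57.3 against 15.6 in males. GATA6 was also higher, at 158 against 86.6 in females and 197 against 84.4 in males. HDAC8 means were lower in SCNT, at 18.1 against 41.8 FPKM in females and 25.4 against 41.1 in males. HNF4A means were lower too, at 28.8 against 65.5 and 25.5 against 49.0. In whole embryos, fewer cells of a type and less RNA per cell cannot be told apart, and the part of these markers in the differences of the 7 genes was not tested. Most male sham NT libraries also had a low rate of mapped reads in the study's record, whose part was not tested either.

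Embryos of the same group differed among themselves, and some of the 7 genes varied together. Each gene was taken as its deviation from the group mean in log2(FPKM + 1) over the 35 embryos, and the 21 pairs were tested by 100000 permutations within groups (two-sided). Of the 21 pairs 20 were positive, with a median r of 0.31, while each of the 7 genes had a median r with all 11144 rows over 1 FPKM of between -0.01 and 0.01. HMGCS1 and DHCR7, near the start and the end of the pathway, were the closest pair (r = 0.70, rho = 0.72, permutation p = 1e-05, adjusted p = 2.1e-04 for each, the smallest the permutations can give). Without the 2 embryos farthest from the median of HMGCS1, male IVF embryo 4 and male sham NT embryo 4, r was 0.65. Without the 2 farthest on DHCR7 it was 0.64. With no embryo left out, r was 0.67 in the 18 males and 0.74 in the 17 females, which are also the 2 sequencing runs.

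A further 4 pairs had an adjusted permutation p of 0.0291 for r. IDI1 and FDFT1 had r = 0.51 and rho = 0.41. Here r fell to 0.37 without the 2 embryos farthest on IDI1 and to 0.43 without the 2 farthest on FDFT1. HMGCS1 with IDI1 had r = 0.48 and rho = 0.51, and r was 0.71 in males and 0.21 in females. Without the 2 farthest on HMGCS1 r was 0.42, and without the 2 farthest on IDI1 0.50. HMGCS1 with FDFT1 had r = 0.47 and rho = 0.44, with r of 0.43 in males and 0.53 in females. Without the 2 farthest on HMGCS1 r was 0.49, and without the 2 farthest on FDFT1 0.39. SQLE with DHCR7 had r = 0.43 and rho = 0.50, with r of 0.55 in males and 0.29 in females. Without the 2 farthest on SQLE r was 0.65, and without the 2 farthest on DHCR7 it was 0.33. By rho, adjusted over the 21 pairs, IDI1 with FDFT1 and HMGCS1 with FDFT1 did not pass (permutation p = 0.0740 and 0.0567), and HMGCS1 with SQLE did (rho = 0.47, permutation p = 0.0440). Within males or females alone 2 pairs passed in each. LSS was the loosest, with r = 0.19 to the mean of the other 6 genes, against 0.63 for both HMGCS1 and DHCR7. INSIG1 was next at 0.32, and no pair with LSS or INSIG1 passed.

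**Figure D4:**
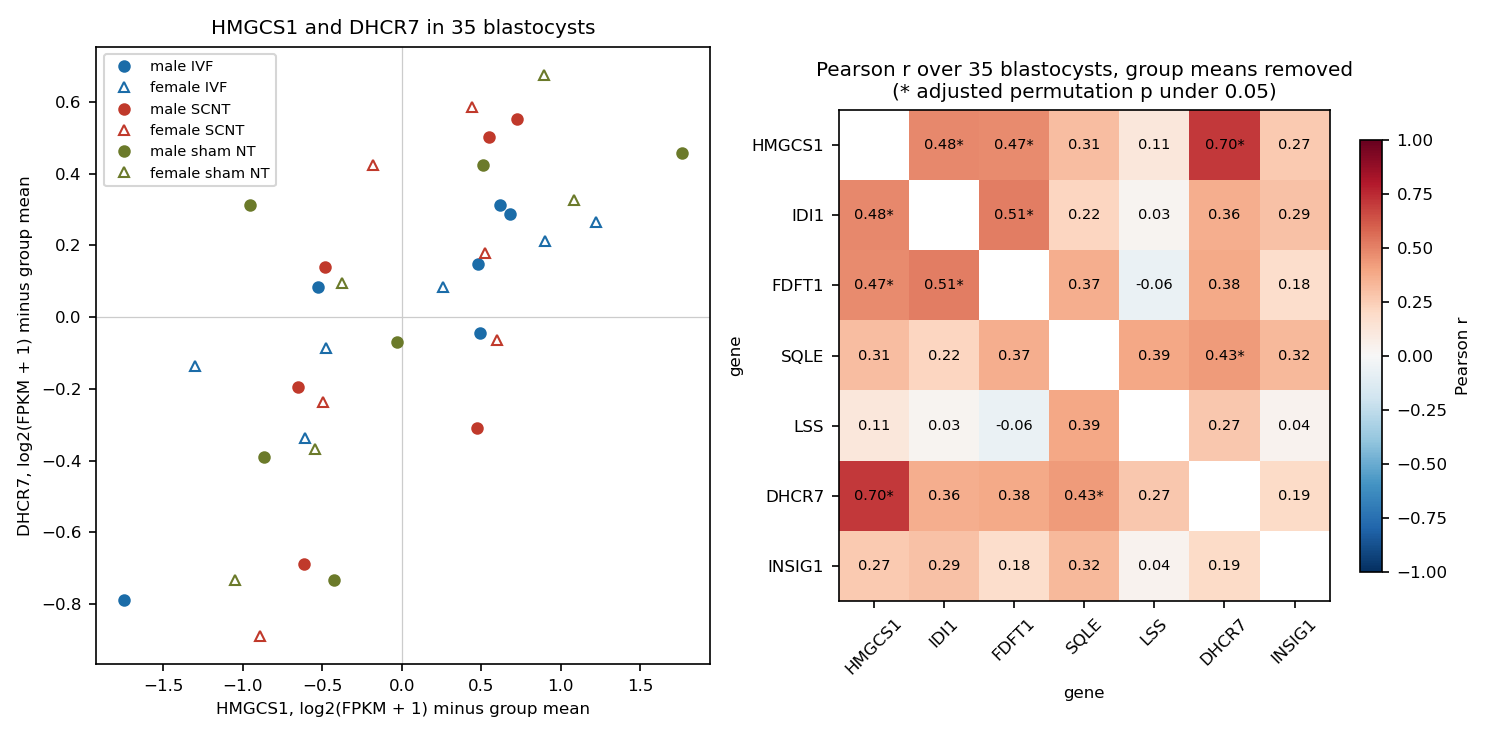
Left, deviation of DHCR7 (vertical) against that of HMGCS1 (horizontal) from the group mean in log2(FPKM + 1) for 35 blastocysts by group (r = 0.70). Right, Pearson r of all 21 pairs of the 7 genes, with stars for an adjusted permutation p under 0.05; the pair of FDFT1 and LSS (-0.06) is the only negative one.

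Genes with the most similar variation were then ranked over 11144 rows, by r with the mean of the 7 standardized genes over the 35 embryos. The first 2 were other cholesterol synthesis enzymes, CYP51A1 (r = 0.74, rho = 0.74) and MSMO1 (r = 0.62, rho = 0.62). SYPL1 (0.59), SKAP2 (0.57), LOC100848463 (0.55), FLNA, RHOC and C29H11orf75 (0.54 each) completed the first 8. CYP51A1 and MSMO1 had r of 0.56 to 0.79 in the males and in the females taken alone, whereas SYPL1 had 0.71 and 0.39 and FLNA 0.70 and 0.11.

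Of the 12 other synthesis enzymes over 1 FPKM, 4 were within the top 1% of rows, and 11 had a positive r, with a median of 0.37 against 0.00 over all rows. NSDHL ranked at 10 (r = 0.53) and EBP at 30 (0.47). The 11 uptake genes over 1 FPKM had a median r of 0.02, the 8 regulators 0.03, the 8 efflux genes 0.05 and the 11 isoprenoid genes -0.0037. ABCA1, the cholesterol exporter, was near the opposite end at rank 11076 (r = -0.42). These values describe libraries that share an amplification protocol, and those of each sex a sequencing run, and no p is given for a mean over the 7 genes. That mean had r = -0.09 with the relative depth, 0.15 with the summed FPKM, 0.33 with the summed trophectoderm markers (rho = 0.16) and -0.15 with the summed inner cell mass markers.

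**Figure D5:**
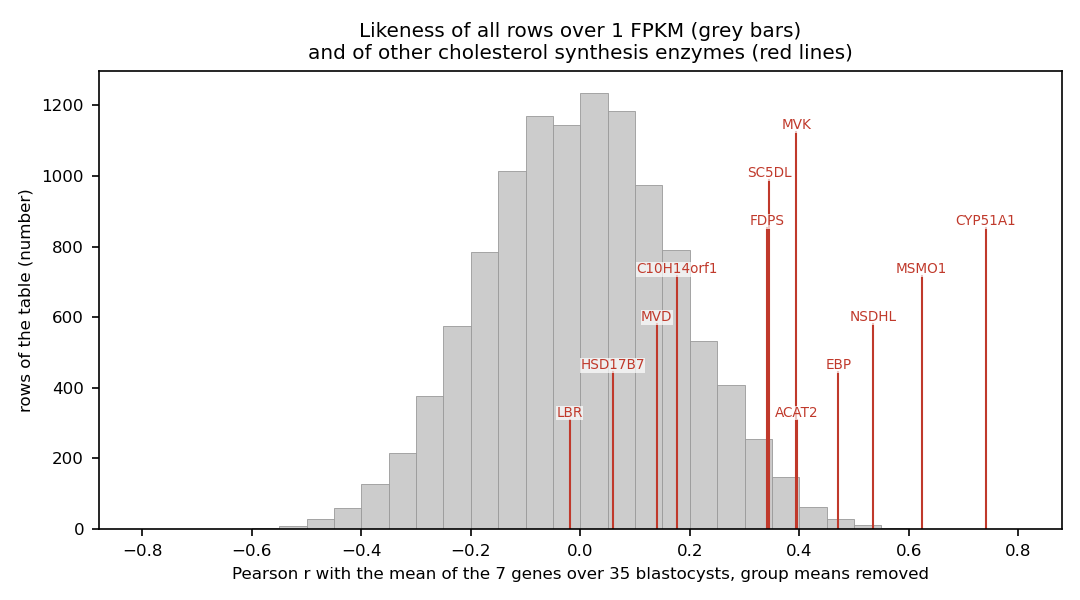
Number of rows (vertical) by their Pearson r with the mean of the 7 genes over 35 blastocysts, group means removed (horizontal; grey bars, 11144 rows over 1 FPKM), with red lines at other cholesterol synthesis enzymes. CYP51A1 (0.74) and MSMO1 (0.62) lie beyond nearly all other rows, and LBR (-0.02) lies in the middle.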

How the data were processed

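Single bovine blastocysts and 2 donor fibroblast libraries had been profiled by amplified poly-A RNA sequencing (37 libraries). Per the labels and the study's methods, the authors trimmed reads with Trim Galore, aligned them to Bos taurus UMD3.1 with TopHat2 and computed FPKM of known transcripts with Cufflinks. The deposited values are FPKM per gene and library. The authors' own tests used Cuffdiff on the reads, which cannot be run on FPKM. All 37 columns matched a labelled sample. Here limma (3.58.1, R 4.3.3), with an intensity trend, was fitted to log2(FPKM + 1) of the groups compared, over rows with a mean above 0.1 FPKM, with Benjamini-Hochberg adjustment over all rows and a threshold of 0.05. The procedure was tested on simulated data. Exact permutation tests over embryos (63, two-sided, smallest possible p 0.00216) were an alternative. Correlations used Python 3.11.15 and scipy 1.17.1. Alternatives were a pseudocount of 0.1, a filter at 1 FPKM or none, libraries scaled to equal sums (TPM scale) or centred on their median, all 6 blastocyst groups in 1 fit, a replicate block, leaving out each embryo, and, added after seeing the data, leaving out both female SCNT embryos 5 and 6.

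Named pathway genes were, per list and comparison, up to 4 called genes in each direction, or the 2 highest expressed where none was called; for likeness, the first 8. The 7 genes and all lists were chosen with earlier results of these data known. APOE was set aside when the table was opened and put back after likeness values had been seen. Some pathway genes are not reported here and were left out of the lists and the likeness ranking, while adjustment still ran over all rows. Nothing says whether embryos came from separate collections, so p-values measure the spread between these embryos. Symbols were used as in the table, in which 389 symbols fill several rows, none of them one of the 7 genes.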

Additional observations from a re-analysis of the deposited data

Results flagged for a closer look

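In FPKM, 5 of the 42 combinations of the 7 genes and 6 blastocyst groups had an embryo far from the others of its group. The rule sets the gap to the nearest embryo against the range of the group. With normally distributed values it would flag about 1 in 20. It was applied to FPKM and not to log2(FPKM + 1), and all 5 flagged embryos were the highest of their group, so that rate may not hold here. HMGCS1 in male sham NT embryo 4 was 112 FPKM, against 16.2 to 46.6 in the other 5. IDI1 in female sham NT embryo 5 was 8.61 FPKM, against 5.10 to 5.88. LSS in female IVF embryo 2 was 6.43 FPKM, against 1.53 to 2.97. INSIG1 was 2.29 FPKM in male IVF embryo 3, against 0 to 0.775, and 1.83 in male sham NT embryo 3, against 0 to 0.357.

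The difference of DHCR7 between SCNT and IVF was -1.23 in males and 0.11 in females on the log2 scale, and the female value was above the male one by 1.33 in a test of the difference itself (limma adjusted p = 0.0425). As given above, that call was lost without a filter, with median centring, with all 6 groups in 1 fit and with most single embryos left out. It was also lost without both female SCNT embryos 5 and 6 (limma adjusted p = 0.124).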

How the results depend on the processing

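Directions of the 16 calls of the 7 genes and of the 60 calls of other pathway genes did not turn under any alternative run. Among the 58 differences of the 7 genes with an unadjusted p of 0.05 or more, 25 changed sign under at least one setting or left-out embryo, at sizes of up to 0.23 on the log2 scale. Without the low-value filter the 7 genes had 2 calls in male sham NT against IVF (4 as reported), 0 in female SCNT against sham NT (2), 1 between the SCNT sexes (2) and 0 for the SCNT difference between sexes (1). Median centring gave the same counts: 2, 0, 1 and 0. The TPM scale gave 0 between the IVF sexes (1), as did all 6 groups in 1 fit, which also gave 0 for the SCNT difference between sexes. With any single embryo left out the ranges were 2 to 3 and 2 to 4 for female and male sham NT against IVF, 0 to 1 for female SCNT against sham NT, 0 to 1 between the IVF sexes, 1 to 2 between the SCNT sexes and 0 to 1 for the SCNT difference between sexes. Leaving out both female SCNT embryos 5 and 6, chosen after seeing the data, gave 1 call in female SCNT against sham NT, 1 between the SCNT sexes and 0 for the SCNT difference between sexes, and 13 of 20 pathway calls that use female SCNT held. Those lost were EBP (adjusted p = 0.107, limma), LCAT (0.0634) and SREBF2 (0.0751) against sham NT, NSDHL (0.0504) and LRP8 (0.0543) between the SCNT sexes, and SCAP (0.0686) and GGPS1 (0.0882) for the SCNT difference between sexes. The correlation calls fell from 5 to 2 in males alone and 2 in females alone. The cause of these losses was not tested, except that the single-sex and left-out runs hold fewer embryos. Of the 60 pathway calls, 34 held in all 6 settings and with any embryo left out, and 30 held under the replicate block as well.

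Replicate numbers did not pair embryos: deviations of same-numbered embryos correlated at -0.21 to 0.10. A replicate block gave 2 calls in male sham NT against IVF, 0 in female SCNT against sham NT, 0 between the IVF sexes, 1 between the SCNT sexes and 0 for the SCNT difference between sexes. The block changed no other count of calls of the 7 genes. The exact permutation tests covered all calls of the 7 genes except that of the SCNT difference between sexes. For the calls covered, their unadjusted p was at most 0.0346. Without a limma call, IDI1 and SQLE in female SCNT against sham NT had an exact permutation p of 0.0216 and 0.0152.

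Over all rows, female SCNT against IVF had 49 calls, but 75 above 1 FPKM, 1 without a filter, 32 on the TPM scale, 131 with all groups, 20 with the block and 1 to 57 with an embryo left out. Male SCNT against IVF had 1040 (652 with the block), and the sham difference between sexes 187 (57 with the block, 110 to 238 left out). The sham sexes had 16 (8 without a filter, 55 with all groups, 3 with the block, 6 to 22 left out), and the SCNT difference between sexes 295 (147 to 311 left out). Scaling moved the balance of higher and lower calls in female sham NT against IVF from 1073 and 988 to 739 and 1627 (TPM scale) or 1293 and 676 (median centred), and in female SCNT against sham NT from 788 and 918 to 1145 and 679 or 579 and 993. In the IVF sexes it moved from 424 and 478 to 595 and 341 or 304 and 550, and in the SCNT sexes from 914 and 826 to 1135 and 618 or 678 and 919. Median centring gave 1130 and 719 in male sham NT against IVF (913 and 888) and 4 and 9 in the sham sexes (7 and 9), and the TPM scale 111 and 86 for the sham difference between sexes (128 and 59).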
